A study of Mus musculus with 4 samples.

Results

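Ankyrin and spectrin genes were examined for DNA whose capture by a methyl-CpG-binding protein was lower in cultured muscle stem cells of tamoxifen-treated mice than in those of oil-treated mice. The genes were Ank1, Ank2 and Ank3, which encode ankyrins, and Sptan1, Sptb, Sptbn1 and Sptbn4, which encode spectrins. The regions were selected on measured values, namely every entry of the authors' list of tamoxifen-low regions that overlapped one of these RefSeq gene bodies or the 2000 bp on either side. That gave 67 of the 39231 listed regions. The genes themselves were chosen by family membership with earlier results of the list known, so their counts and folds are given as a description and no test was made.

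Ankyrins are adaptor proteins that hold ion channels, transporters and adhesion molecules in place by binding them with 1 face and the spectrin lattice with another. Spectrins are long rods built of alpha and beta chains that pair and cross-link short actin filaments under the plasma membrane. In skeletal muscle this skeleton lies beneath the sarcolemma at costameres, and small ankyrin-1 forms anchor the sarcoplasmic reticulum to the contractile apparatus through obscurin. Uhrf1, the gene deleted in this study, encodes a protein that reads hemimethylated DNA after replication and brings in Dnmt1, which copies methylation to the new strand.

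There were 4 libraries, 1 in each of 4 groups, made from tamoxifen-treated or oil-treated mice and from methylated or non-methylated DNA. Satellite cells, the stem cells of skeletal muscle, came from hindlimb muscles of 9-week-old mice whose satellite cells were Uhrf1-deficient after tamoxifen or served as controls after oil, and were grown for 3 days on Matrigel in medium with 20% serum. Tamoxifen mice had received 150 µl of a 20 mg/ml solution in corn oil into the peritoneum on 5 consecutive days to start Cre recombination, and the other mice had received oil. The Cre driver, the deleted interval, the genotype of the oil mice and the number of animals behind a library are not given in the sources used here. Captured DNA carries no expression, so marker genes of satellite cells could not be checked. The list compares 1 tamoxifen library of 25614791 tags with 1 oil library of 19534328 tags, both after removal of duplicates, and its header leaves the DNA part unnamed. Both alignments are read here as methylated DNA. With 1 library on each side, the deletion, tamoxifen, the animals, the culture and the capture cannot be told apart.

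In the text below, tags are unscaled sequence tags over the point of a region where the oil library was highest. The fold is the authors' value and runs oil over tamoxifen after the tamoxifen tags were scaled by 0.763, so that a larger fold means less captured DNA in tamoxifen. The limits beside a fold bound the scaled oil to tamoxifen ratio at 95% confidence by the exact method of Clopper and Pearson, and they cover counting error only. PCR duplicates were removed by position and not by molecular identifiers. Coordinates are GRCm38 (mm10).

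No region touched a listed start in the genes for which starts were at hand. RefSeq promoter windows of 250 bases before and 50 bases after a start were at hand for 5 of the 7 genes, 12 windows in all, and 0 of the 12 were overlapped, where 1.28% of 32851 windows in the genome were. At so low a background, 0 in 12 windows carries no information on these genes. The start sites of Ank2 and Sptbn4 that lay nearest to a region are printed here beside the first start of Ank2, since they differ in CpG, the dinucleotide that carries methylation. All are 5′ to 3′ on the minus strand of GRCm38.p6, from RefSeq, with CG in capitals.
Ank2 inner start, chr3:126943337-126943636: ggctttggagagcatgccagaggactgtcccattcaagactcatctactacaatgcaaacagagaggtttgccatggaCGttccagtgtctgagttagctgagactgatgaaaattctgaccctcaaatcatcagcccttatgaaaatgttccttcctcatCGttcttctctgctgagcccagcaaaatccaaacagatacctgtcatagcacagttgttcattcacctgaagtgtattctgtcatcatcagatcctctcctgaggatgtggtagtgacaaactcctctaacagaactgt
Ank2 first start, chr3:127499066-127499365: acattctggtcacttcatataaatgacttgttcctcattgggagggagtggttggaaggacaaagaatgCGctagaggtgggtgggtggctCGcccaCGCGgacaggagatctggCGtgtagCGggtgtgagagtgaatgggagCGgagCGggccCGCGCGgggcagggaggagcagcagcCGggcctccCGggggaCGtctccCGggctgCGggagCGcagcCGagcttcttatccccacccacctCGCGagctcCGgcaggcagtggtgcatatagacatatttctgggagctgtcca
Sptbn4 first start, chr7:27446540-27446839: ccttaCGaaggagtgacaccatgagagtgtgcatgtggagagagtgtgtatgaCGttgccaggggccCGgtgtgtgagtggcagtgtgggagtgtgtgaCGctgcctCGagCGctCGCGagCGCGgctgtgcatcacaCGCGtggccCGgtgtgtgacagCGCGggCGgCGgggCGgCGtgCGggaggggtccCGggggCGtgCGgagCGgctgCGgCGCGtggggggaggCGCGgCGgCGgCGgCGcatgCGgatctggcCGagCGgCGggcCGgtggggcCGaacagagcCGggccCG

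The inner Ank2 window held 2 CG and was 45.0% G or C, the first Ank2 window held 21 CG and was 62.7% G or C, and the Sptbn4 window held 41 CG and was 73.7% G or C. The median of all windows was 7 CG and 52.7% G or C, and 94.6% of them held at least 1 CG. The inner Ank2 start was the only one of the 12 with regions within 2000 bp, 1 beginning 719 bp upstream (126944105 to 126944668) and 1 lying 1311 bp downstream (126941875 to 126942075). The first Ank2 start lay 12092 bp from its nearest region and the Sptbn4 start 2889 bp. Across the genome, regions overlapped 0.376% of windows with 0 to 4 CG, 3.56% of those with 5 to 14 and 0.457% of those with 15 or more. The strand of Ank1 and Ank3 was not used here, and positions in them are given along the chromosome from the end of lower coordinate.

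All 7 genes carried at least 1 region. Among 21887 protein-coding genes 45.2% did, and among the 4945 of 50 kb or more, the class to which all 7 belong, 78.6% did. The counts ran from 2 in Sptan1 and Sptbn1, through 4 in Sptb, 5 in Ank1 and Sptbn4 and 18 in Ank2, to 31 in Ank3, so that Ank3 held almost as many as the other 6 genes together (36). Per 100 kb of gene and flanks, Ank3 had 6.23 regions, Sptbn4 5.25, Ank2 3.09, Sptb 2.98, Sptan1 2.86, Ank1 2.78 and Sptbn1 1.16. The median over the 7 genes was 2.98, against 1.60 over protein-coding genes of 50 kb or more (quartiles 0.421 and 3.46). Ank3 exceeded 91.0% of those long genes and Sptbn4 86.4%, the next 4 genes lay between 66.9% and 70.4%, and Sptbn1 exceeded 40.4%.

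**Figure D1:**
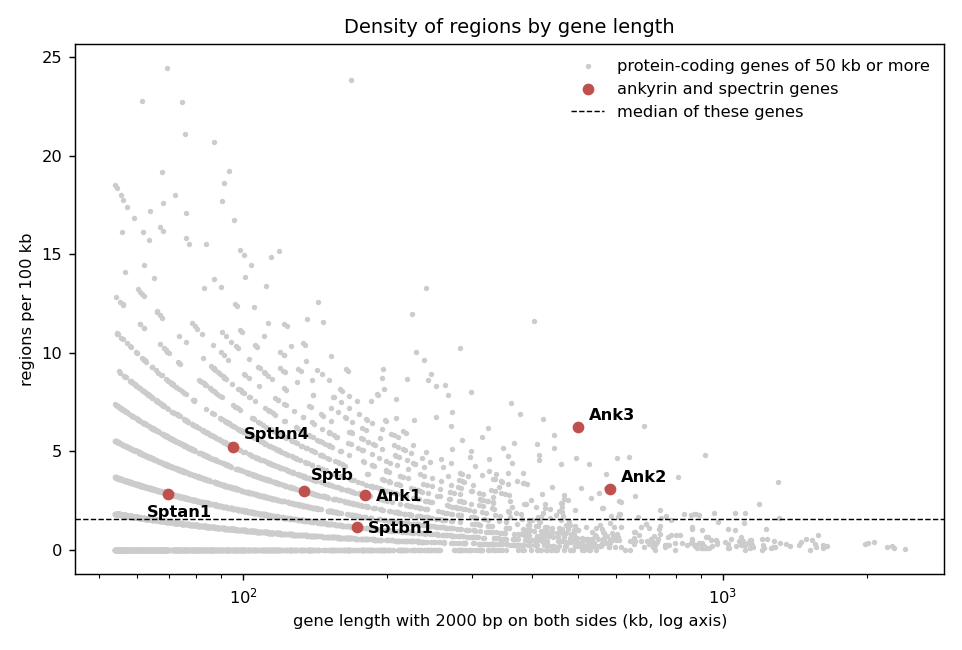
Regions per 100 kb (vertical axis) against gene length with flanks in kb (horizontal log axis). Each grey point is a protein-coding gene of 50 kb or more, the dashed line is their median of 1.60, and the red points are the 7 ankyrin and spectrin genes. Ank3 at 6.23 and Ank2 at 3.09 lie high among genes of similar length, while Sptbn1 at 1.16 lies below the line.

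Very long genes held few regions for their length. Among the 352 protein-coding genes of 400 kb or more, a limit set after the values were seen, the median was 0.567 per 100 kb. Ank3 ranked 4 in that class, behind Dst, Maml3 and Zfhx3, and Ank2 ranked 22.

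The difference in captured signal at these regions was of the size seen across the list. The median of the 67 regions was 13 tamoxifen tags against 49 oil tags, and that of all regions 14 tamoxifen tags against 51 oil tags. After scaling, the tamoxifen signal was at the median 19.1% of the oil signal in ankyrin and spectrin regions and 20.1% of it in all regions. The median fold was 4.77 (quartiles 4.03 and 5.89) against 4.61 (3.67 and 5.87) over all. A fold of 4 or more was found in 51 of 67 regions (76.1%, exact 95% limits 64.1% to 85.7%), where 66.1% of all regions had one, and a fold under 3 in 6 regions (8.96%), where 10.2% of all did. Past a q limit of 1e-10 there were 58 regions (86.6%), and 82.8% of all regions. The limits treat regions as independent, and many of them lay side by side.

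**Figure D2:**
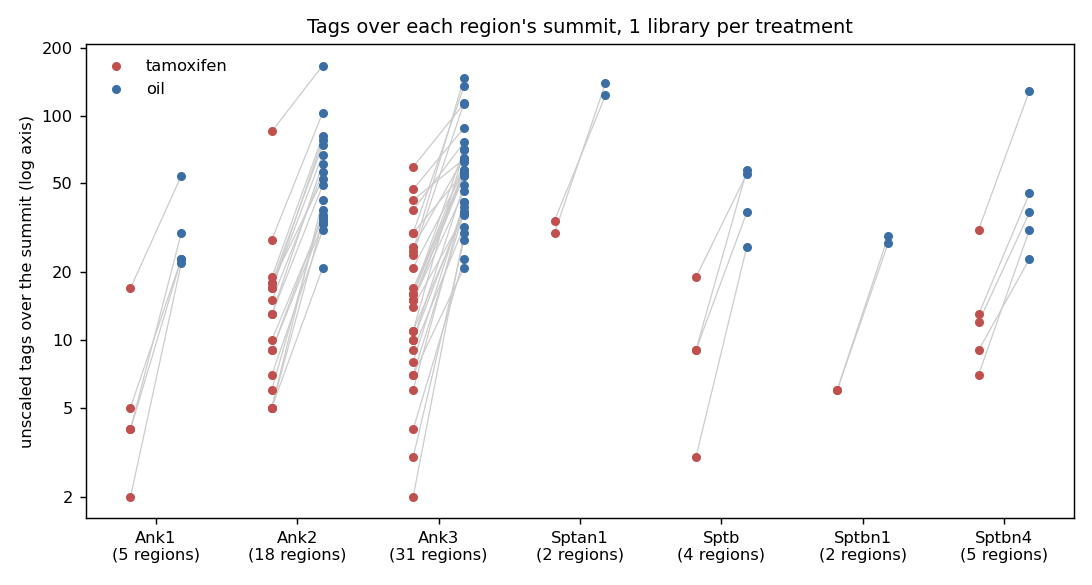
Unscaled tags over the summit (vertical log axis) of each region of the 7 genes, with tamoxifen in red at the left and oil in blue at the right of each pair and a grey line joining the same region. The 2 regions of Ank1 and Ank3 with 2 or fewer tamoxifen tags are drawn at 2. In every pair oil lies above tamoxifen, by the rule that chose the regions, and the Ank2 region with 85 tamoxifen tags is the highest on the tamoxifen side.

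Ank1, on chromosome 8 from 22974836 to 23150501, encodes the ankyrin of red blood cells and of the sarcoplasmic reticulum in muscle. Its 5 regions lay inside the gene, between 31.2% and 90.7% of its length, and none lay within 2000 bp of either end. The largest deposited fold was 7.65 (limits 3.47 to 38.4) at 23094762 to 23094981, with 4 tamoxifen and 30 oil tags. The next were 7.42-fold at 23123713 to 23123914, with 2 or fewer tamoxifen tags and 22 oil tags, and 5.93-fold at 23134085 to 23134439, with 4 tamoxifen and 23 oil tags. The 7.42-fold value was set by the caller's floor of 2.10 scaled tamoxifen tags, so the order of the first 2 regions is not determined by their tags. The best covered region, at 23037125 to 23037358, had 17 tamoxifen and 54 oil tags and the smallest fold of the gene, 3.94 (limits 2.38 to 7.66). The remaining one had 5 tamoxifen and 23 oil tags. Apart from the best covered one, the Ank1 regions thus rested on 5 or fewer tamoxifen tags and at most 30 oil tags each, and their limits are wide. Mir486, a microRNA gene known for its abundance in muscle and red cells, lies within Ank1, and its nearest region was 8.12 kb away.

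Ank2, on chromosome 3 from 126921607 to 127500347, encodes ankyrin-B, which holds membrane transporters in place in heart muscle and takes part in the costameres of striated muscle. It is transcribed toward lower coordinates. Of its 18 regions, 7 lay in the last 10% of the gene in the direction of transcription and 2 in the first 10%. No region lay within 2000 bp of a gene end. The largest fold was 8.93 (limits 4.36 to 35.7), in mid gene at 127226899 to 127227156, with 5 tamoxifen and 42 oil tags. It was followed by 7.27-fold at 126930311 to 126930570, with 5 tamoxifen and 34 oil tags, and 6.99-fold at 126948341 to 126948558, with 6 tamoxifen and 38 oil tags. The region with most oil tags of the whole set, at 127105944 to 127106321, had the smallest fold of the gene, with 85 tamoxifen and 167 oil tags (2.55-fold, limits 1.97 to 3.39). It kept 38.8% of the oil signal, the most of any Ank2 region, against a median of 18.8% in the gene.

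Near its 3′ end, Ank2 held 5 regions within 6.68 kb (126941875 to 126948558), a run that takes in the inner start site printed above. In order of coordinate they had 9, 13, 18, 17 and 6 tamoxifen tags, against 33, 49, 74, 67 and 38 oil tags. Their folds ran from 4.32 to 6.99 with a median of 4.87, against a median of 4.71 in the other 13 regions of the gene. A run of 5 regions in so short a span occurred at 48 separate places in the list.

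Ank3, on chromosome 10 from 69533486 to 70027436, encodes ankyrin-G, which organises the axon initial segment and nodes of Ranvier in neurons and the lateral membrane of epithelial cells. Its 31 regions made it the gene ranked 7 by number of regions among protein-coding genes. They were gathered at its extremities, with 6 in the 10% of the gene at the lower coordinate end and 15 in the 10% at the higher end, and 10 in the 80% between. None lay within 2000 bp of an end, although the last, at 70024938 to 70025330, ended 2106 bp short of one. That last region had the most oil tags of the gene, 147 against 25 in tamoxifen, a fold of 7.38 (limits 5.02 to 12.3). The largest fold, 10.001 at 69956840 to 69957092, was also set by the caller's floor, with 2 or fewer tamoxifen tags and 30 oil tags. Its limits, 4.99 to 170, take the tamoxifen tags as 2, and with fewer tags both would be higher. The next were 8.82 at 69798197 to 69798449 (3 tamoxifen and 28 oil tags) and 7.56 at 69688459 to 69688810 (11 tamoxifen and 70 oil tags). The largest folds of Ank3 lay outside its densest stretch.

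**Figure D3:**
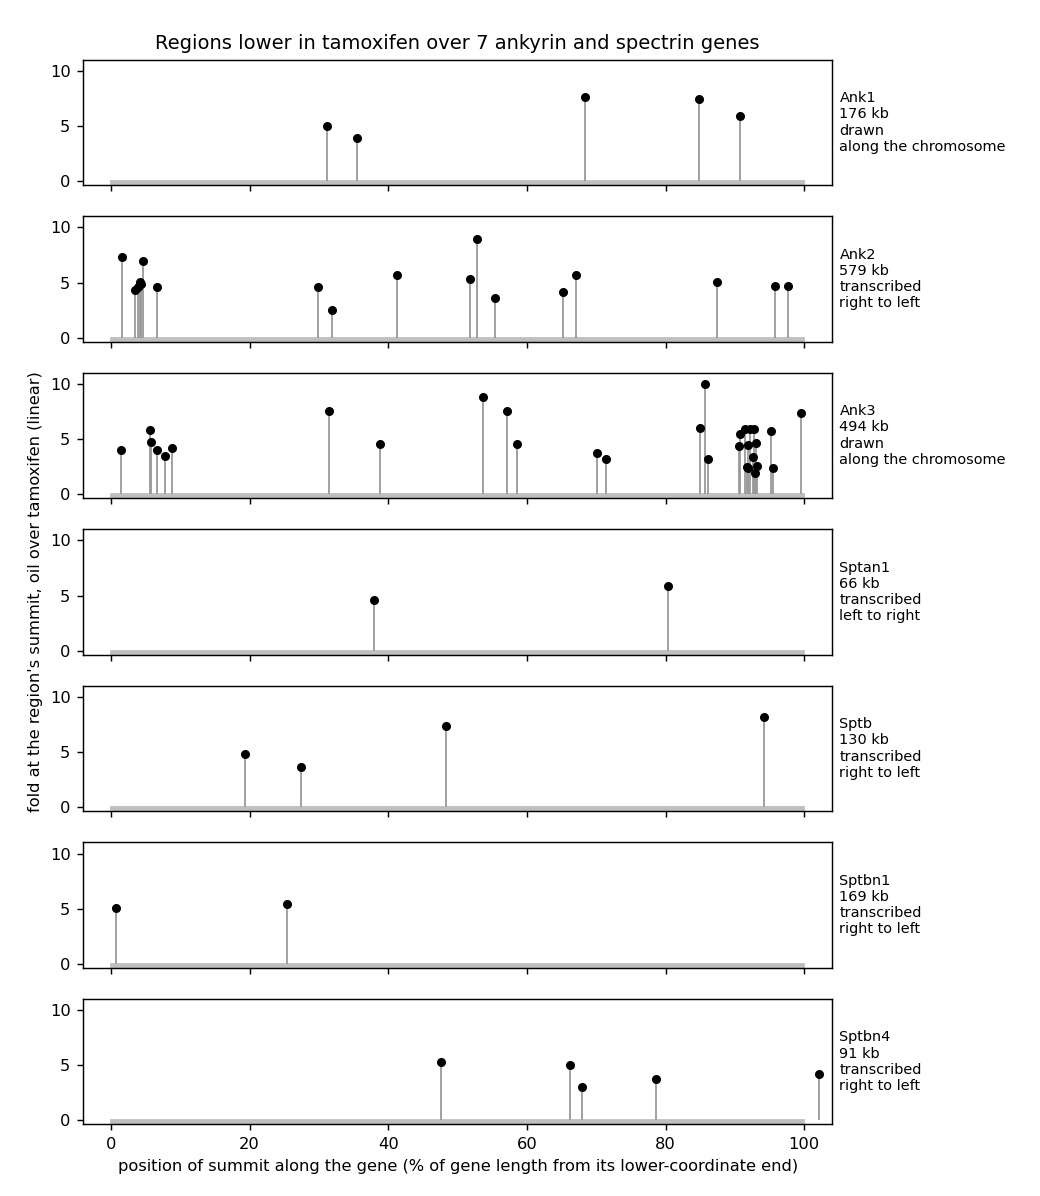
Position of each region's summit along the 7 genes (horizontal axis, % of gene length from the end of lower coordinate) and its fold, oil over tamoxifen (vertical linear axis). The grey bar is the gene, and the label at the right gives its length and direction of transcription where used. Ank3 has 15 regions in its last 10% and Ank2 has 7 in its lowest 10%, while the 13 spectrin regions are spread out.

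The densest stretch of Ank3 ran from 69980514 to 69993737. It held 12 regions in 13.2 kb, no more than 5 kb apart, which together covered 28.8% of it. In order of coordinate these had 16, 16, 24, 59, 47, 15, 4, 21, 8, 42, 10 and 38 tamoxifen tags, against 57, 71, 114, 113, 88, 54, 23, 57, 41, 64, 39 and 76 oil tags. The fold varied from neighbour to neighbour. The third, at 69985313 to 69985677, was 5.96-fold (limits 3.98 to 10.1). The fourth, 552 bp further on, was 2.48-fold (limits 1.82 to 3.50) at nearly the same oil tags. This pair was picked after the values were seen and its limits cover counting error only, so the difference was not tested. In all, 4 of the 12 regions had a fold under 3 and kept between 38.1% and 50.05% of the oil signal, against 1 of the other 19 regions of Ank3. The median fold was 4.41 in the stretch and 4.58 in the rest of the gene. The weakest of all 67 regions, at 69992182 to 69992414, lay here, with 42 tamoxifen and 64 oil tags (1.97-fold, limits 1.33 to 3.02), above only 0.586% of the list.

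**Figure D4:**
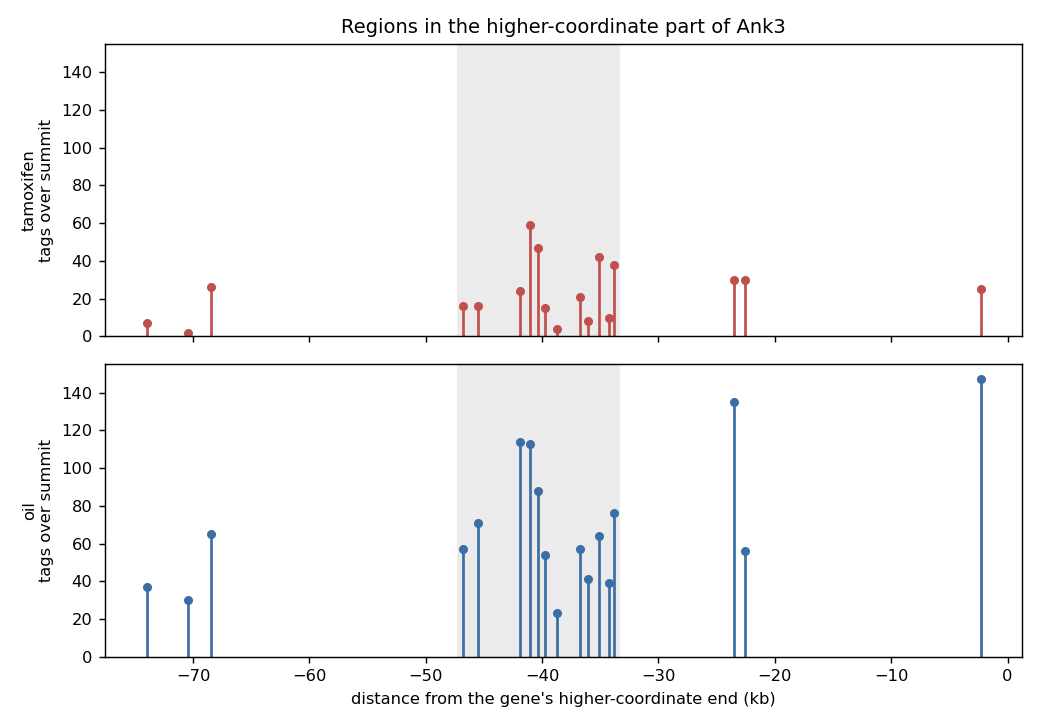
Unscaled tags over the summit (vertical axes, tamoxifen above and oil below, on the same scale) of the Ank3 regions nearest its higher-coordinate end, by distance from that end in kb. The shaded band is the stretch of 12 regions in 13.2 kb. Tamoxifen tags vary from 4 to 59 within the band, and the last region has 25 tamoxifen and 147 oil tags.

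At least 12 regions in a span of this size were found at 3 separate places of the list, and Ank3 was the only one inside a protein-coding gene. The other places lay side by side at the start of chromosome 9 (3000215 to 3013351 and 3016118 to 3027044). Since the number and span were set by Ank3 itself, this is a description. Where regions less than 500 bp apart were joined, the stretch held 7, and 15 places held as many, of which 9 were in protein-coding genes, so that its rank depends on how neighbouring regions are counted.

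The spectrin genes held 13 regions with a median fold of 5.02, where the median of all regions was 4.61. Of the 13, 10 had a fold of 4 or more (76.9%, exact 95% limits 46.2% to 94.96%), where 66.1% of all regions had one. These limits include the share of the list, so no difference from the list is read from the spectrin regions. Sptan1 (chromosome 2, 29965560 to 30031451) encodes alpha-II spectrin, the alpha chain of most cells other than red cells. Its 2 regions were among the best covered of the set. The one at 30018375 to 30018980, 606 bp long, had 30 tamoxifen and 139 oil tags (5.86-fold, limits 4.07 to 9.34), and that at 29990528 to 29990799 had 34 tamoxifen and 123 oil tags (4.60-fold, limits 3.22 to 7.16). Both lay far inside the gene, the nearer one 24968 bp from the start. Mir6997, a microRNA gene within Sptan1, had its nearest region 5.15 kb away.

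Sptb (chromosome 12, 76580488 to 76710547) encodes beta-I spectrin of red cells and muscle. Its strongest region, 7391 bp inside the start at 76702936 to 76703156, had 3 tamoxifen and 26 oil tags (8.21-fold, limits 3.48 to 58.7), the largest fold among the spectrin genes. A region in mid gene, at 76643190 to 76643455, had 9 tamoxifen and 57 oil tags, the most oil tags of the gene, and was 7.38-fold (limits 4.08 to 19.1). Both others lay nearer the 3′ end than these. One had 9 tamoxifen and 37 oil tags (4.83-fold, limits 2.56 to 12.7). The other had 19 tamoxifen and 55 oil tags (3.62-fold, limits 2.22 to 6.77). Their limits overlap those of the stronger regions, so no trend along the gene is read from the folds.

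Sptbn1 (chromosome 11, 30099395 to 30268384) encodes beta-II spectrin, the usual partner of alpha-II. It was the sparsest of the 7 genes. Its 2 regions were alike and weakly covered, with 6 tamoxifen and 29 oil tags at 30142187 to 30142448 (5.38-fold, limits 2.59 to 18.7) and 6 tamoxifen and 27 oil tags at 30100438 to 30100638 (5.02-fold, limits 2.39 to 17.5). The second one began 1043 bp inside the 3′ end.

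Sptbn4 (chromosome 7, 27356383 to 27447704) encodes beta-IV spectrin, which works with ankyrin-G at axon initial segments. Its best covered region, at 27399746 to 27400021, had 31 tamoxifen and 129 oil tags and the largest fold of the gene (5.28, limits 3.66 to 8.36), 3193 bp upstream of an inner start. The other regions were weaker, at 5.05-fold (7 tamoxifen and 31 oil tags), 4.21-fold (13 tamoxifen and 45 oil tags), 3.74-fold (12 tamoxifen and 37 oil tags) and 3.05-fold (9 tamoxifen and 23 oil tags). The 4.21-fold region, at 27449478 to 27449715, lay outside the gene beyond its 5′ end and inside the neighbouring gene Blvrb, which encodes a biliverdin reductase. At a q limit of 1e-10 Sptbn4 kept 3 regions, or 3.15 per 100 kb.

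Regions within 2000 bp of a gene end were thus found in 2 of the 7 genes, Sptbn1 at its 3′ end and Sptbn4 beyond its 5′ end, 1 in each, and in 18.4% of protein-coding genes. In the 5 genes with a known direction, 30 regions lay inside the gene, 13 in the part nearer the start and 17 in the part nearer the 3′ end. The 8 in the last 10% were the 7 of Ank2 and 1 of Sptbn1. At the edge of the choice, the region of Sptbn4 in Blvrb was the only one admitted by the flanks alone. The nearest regions left out were 2494 bp from Sptb (14 tamoxifen and 46 oil tags, 4.03-fold) and 4443 bp from Sptbn4 (5 tamoxifen and 27 oil tags, 5.82-fold).

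Sptbn5, a spectrin gene of 47.4 kb outside the 7 that encodes the large beta-V chain, had 0 regions. Only 45.2% of protein-coding genes carried a region, so a gene without one is common. For a gene with no region, the list does not tell whether its captured DNA was absent, alike in both libraries, higher in tamoxifen or covered by too few tags.

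Among 11 partners of the membrane skeleton, 8 carried a region (72.7%), where 45.2% of all protein-coding genes and 78.6% of those of 50 kb or more did. Of the 11, 8 were 50 kb or longer, and the median density was 5.28 per 100 kb. The adducin genes Add3 and Add1, whose products cap actin and recruit spectrin to it, were the densest at 7.21 and 6.39, followed by the protein 4.1 family gene Epb41l1 at 6.17. Add3 had 2 regions near an end, 1 of them 10.4-fold (8 tamoxifen and 73 oil tags), and Epb41l3 had 1 that was 4.29-fold (25 tamoxifen and 85 oil tags). Add2, Epb42 and Mpp1 had 0.

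Among 13 membrane proteins known to bind ankyrins, 11 carried a region (84.6%), against the same shares of 45.2% and 78.6%, with 8 of the 13 genes 50 kb or longer. Their median density was 1.98 per 100 kb. The calcium channel gene Cacna1d had 1 region near an end, which was 5.05-fold (7 tamoxifen and 31 oil tags). Slc4a1 and Rhag, which encode red cell membrane proteins, had 0.

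Among 10 muscle partners and relatives with spectrin repeats, 9 carried a region, again beside 45.2% of all protein-coding genes and 78.6% of the long ones, and 7 of the 10 were 50 kb or longer. Their median density was 3.64 per 100 kb. The densest was Obsl1, which encodes an obscurin-like protein, at 16.2, followed by the dynactin gene Dctn4 at 8.19 and the actinin gene Actn2 at 6.64. Regions near an end were found at Obsl1 (6.46-fold, 6 tamoxifen and 35 oil tags), Actn1 (3.77-fold, 6 tamoxifen and 20 oil tags) and Actn2, which had 2 (1 of them 6.04-fold, 18 tamoxifen and 88 oil tags). Actn3 had 0. Dmd, the dystrophin gene on chromosome X, had 1 region in 2390 kb, with 27 tamoxifen and 82 oil tags (3.84-fold). The lists mix genes of very different length, and their medians are descriptions beside the 0 of all protein-coding genes and the 1.60 of those of 50 kb or more.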

How the data were processed

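MBD2 capture sequencing was done on 4 libraries of cultured mouse satellite cells, and 1 list of regions was analysed. Per the file headers, the authors ran MACS 2.2.6 on the tamoxifen alignment as control and the oil alignment as treatment, keeping 1 tag per position, extending tags to 201 bp, using no local background windows and a q limit of 1e-04. Trim Galore, HISAT2 and mm10 are named in the submitters' processing notes. Of 36519772 tamoxifen tags 25614791 were kept, and of 35216008 oil tags 19534328.

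The deposited pileup is a signal, the extended oil tags over a summit. The deposited fold is a ratio of oil plus 1 over scaled tamoxifen plus 1. The authors' -log10 p and -log10 q columns had lost their headings and were read from their order. Tamoxifen tags were computed from pileup and fold and came out whole within 0.02 in 97.5% of regions. The others, at the caller's floor, are given as 2 or fewer. Reading each region at its oil summit biases folds upward.

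Regions were joined by any overlap to the RefSeq table of GRCm38.p6 with Python 3.11.15, pandas 2.3.3 and scipy 1.17.1. The counting steps were tested on simulated data. Members, gene lists and the rule for regions described (for each gene the 3 of largest fold, the 1 with most oil tags and those near an end, and for other lists the genes with a region near an end and the 3 densest) were chosen with earlier results of these data known. Some genes of these other lists that the rule names are not reported here. With 1 library per group no test was made. Alternatives were other q limits, flanks, overlap rules, joining of neighbours and unscaled tags.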

Additional observations from a re-analysis of the deposited data

How the results depend on the processing

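All 7 genes kept a region under each alternative that included them. The 67 regions became 64 at a q limit of 1e-06, 58 at 1e-10, 66 with no flanks, 69 with flanks of 5000 bp and 61 with neighbours less than 500 bp apart joined. With unscaled tamoxifen tags the median fold was 3.71 instead of 4.77 and 44.8% of regions reached 4. Without Ank3, a setting added after the data were seen, 36 regions remained with a median fold of 5.00. With unscaled tags in the p-value, also added, 63 regions were past the limit and 4 (5.97%) were not. Among all regions of the list 5.34% were not, a similar share. The 4 were Ank3 regions starting at 69571929, 69992182 and 70004713 and the Sptbn4 region at 27418376. Among the counts and densities of single genes, those of Sptbn4 moved by over 1.5 times, to 3 regions and 3.15 per 100 kb at 1e-10. No paired analysis was possible because each group holds 1 library. Regions with 5 or fewer tamoxifen tags have ratios known only within wide counting limits.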

Other observations

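Of the 67 regions, 5 also overlapped another annotated gene. No share over the whole list is set beside this count, so it describes location only. In Ank3 these were 1 region in the lncRNA gene Gm51806, 2 in the lncRNA gene Gm33464 and 1 over the pseudogene Gm46231, all in the part of lower coordinate, and in Sptbn4 the region inside Blvrb. The 12 regions of the densest stretch of Ank3 overlapped no other gene of the table. In Ank1 the best covered region began 0.048 kb beyond the lncRNA gene Gm51563.

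Of the 67 regions, 12 had a neighbour in the same gene less than 1 kb further on, 11 in Ank3 and 1 in Ank2, and 0 of the 13 spectrin regions did. In the whole list, 2096 of 39231 regions had a neighbour less than 1 kb further on. That count takes the next region on the chromosome, whether or not it lay in the same gene. The regions of the set were short, with a median of 253 bp against 259 bp in the list. Of them, 4 (5.97%) were 500 bp or longer, where 4.87% of all regions were. These 4 were 2 in Ank2, 1 in Ank3 and 1 in Sptan1.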
